A study of Mus musculus with 12 samples.

Results

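The matrix metalloproteinases (MMPs), the ADAMTS proteases and the tissue inhibitors of metalloproteinases (TIMPs) are the enzymes that cut the extracellular matrix and the proteins that hold them in check. Their genes were taken from the deposited count table by symbol, as Mmp with a number, Adamts with a number and Timp1 to Timp4. This gave 46 of the 50559 genes, with 23 MMPs, 19 ADAMTS proteases and 4 TIMPs. Of these, 36 reached at least 10 counts in 3 libraries and are described one by one or in groups, namely 13 MMPs, all 19 ADAMTS proteases and all 4 TIMPs. The other 10 MMPs stayed below that level, and 4 of them were at 0 counts throughout.

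The study examined whether minocycline, a tetracycline that dampens microglia, preserves retinas that develop without enough pericytes. Wild type pups of the strain labelled C57BL6/J received a single injection of 30 µg antibody on postnatal day 1. This was either APB5, a rat antibody that blocks PDGFRβ and so keeps pericytes from reaching the growing vessels, or a rat IgG isotype control. In IgG+Mino and APB5+Mino pups minocycline was also injected every day between days 5 and 27, at a dose not given in the sources used here, whereas IgG and APB5 pups had the antibody alone. Retinas were collected on day 28, and each of these 4 groups has 3 RNA-Seq libraries. The blockade acts through the antibody and not through a changed gene, and the retina was sequenced whole, so a lower level of a transcript can reflect fewer cells of a type or less RNA per cell, which cannot be told apart here. The labels do not say whether a library is 1 animal, so p-values measure the spread between libraries.

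MMPs are zinc enzymes that are made as inactive precursors and cut once the prodomain is removed. MT1-MMP, the product of Mmp14, sits in the cell membrane and activates the gelatinase MMP2 with TIMP2 as its docking partner. ADAMTS proteases are secreted, carry thrombospondin repeats, and include enzymes that cut lecticans such as aggrecan and versican and enzymes that trim procollagen. In the retina TIMP3 is best known as a component of Bruch's membrane that is mutated in Sorsby fundus dystrophy, and MMP9 and MMP2 are known for their part in breakdown of the blood-retina barrier.

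Total counts were 52740545 to 59411044 per library, and CPM values (counts scaled to library size) were computed with TMM factors. The 5 rod markers, taken to check the tissue, summed to between 43043 and 65700 CPM in 11 libraries and to 11048 CPM in APB5 replicate 3. This library stood apart from the other 11 in several other marker lists. All 5 fibroblast markers were highest in it, with a sum of 647 CPM against 16.0 to 57 elsewhere, and so were all 5 markers of reactive Müller glia, at 2666 CPM against 77.5 to 322. The microglia and macrophage list had 7 of 8 markers highest there (268 CPM against 22.6 to 72.0), the pericyte and smooth muscle list 5 of 7 (389 CPM against 70.8 to 128) and the pigment epithelium list 5 of 5 (273 CPM against 24.7 to 107). Neutrophil markers summed to 3.30 CPM there and to at most 0.54 CPM elsewhere, and Ly6g was at 0 in it. Xist, transcribed from the inactive X chromosome of female cells, was high in all 3 IgG libraries, in APB5 replicate 3 and in APB5+Mino replicate 3 (815 to 2662 CPM) and at most 0.68 CPM in the other 7. Values that rest on APB5 replicate 3 are therefore given with and without it.

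Among the 36 genes, APB5 replicate 3 was the highest library for 22 (61.1%), against 24.5% of the 21364 genes of the table at the same level. Its level exceeded the median of the other 11 libraries by more than 2-fold for 18 of the 36 genes (50%), against 12.4% of the 21343 genes for which this ratio was taken, and by more than 5-fold for 8 (22.2%), against 3.44%. The genes of that last group were Timp1, Mmp12, Adamts19, Mmp19, Adamts2, Mmp2, Adamts4 and Mmp14. Adamts3 and Adamts16 went the other way, at 0.50 and 0.57 of the median of the others. The share of the marker lists in these values was not tested.

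**Figure D1:**
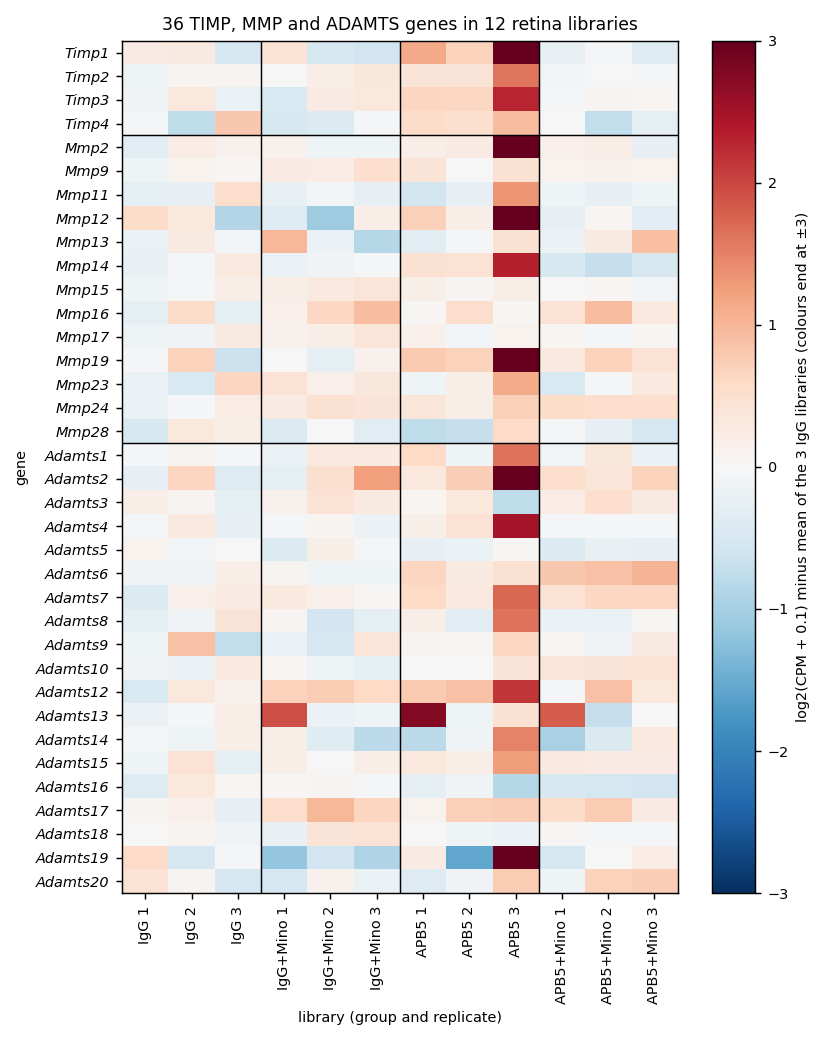
Colour gives log2(CPM + 0.1) of each of the 36 genes (rows) in each of the 12 libraries (columns), minus the mean of the 3 IgG libraries, with colours ending at 3 in either direction. The column of APB5 replicate 3 is the darkest red, with Timp1, Mmp2, Mmp12, Mmp19, Adamts2 and Adamts19 past the end of the scale.

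Levels of different genes were compared as CPM per kilobase of the canonical transcript. In IgG retinas the inhibitors led the order, with Timp2 at 25.8 ± 2.28 and Timp3 at 22.7 ± 4.59 CPM per kilobase (mean ± SD, n = 3), which overlapped. Adamts3, a procollagen N-proteinase that also processes VEGF-C, followed at 11.3 ± 1.99, Adamts1, a lectican-cutting enzyme that restrains angiogenesis, at 10.9 ± 0.59, and Mmp14 at 9.85 ± 1.89 CPM per kilobase. These 3 did not differ beyond their spread. Adamts10 (7.68 ± 1.40), which acts on fibrillin microfibrils, Mmp9 (6.76 ± 0.57) and the membrane-type Mmp24 (5.20 ± 0.74) came next on the same scale. Mmp2 stood at 1.51 ± 0.29, and Timp1 and Timp4 at 0.75 ± 0.24 and 0.07 ± 0.05 CPM per kilobase, so that the inhibitor transcripts of the IgG retina were almost entirely those of Timp2 and Timp3.

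Summed over the family, the 4 TIMPs reached 70.6 and 69.5 CPM per kilobase in APB5 replicates 1 and 2 and 261 in replicate 3, against 42.6 to 60.9 in the 9 libraries of the other groups. The 13 reported MMPs summed to 42.1, 38.5 and 99.1 CPM per kilobase in APB5 and to between 29.8 and 40.6 elsewhere. The ratio of the TIMP sum to the MMP sum was 1.68, 1.81 and 2.63 in the 3 APB5 libraries and between 1.17 and 1.66 in the other 9, so the groups did not overlap, although APB5 replicate 1 (1.68) and IgG replicate 2 (1.66) were close.

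A block of 10 MMP genes lies together on chromosome 9 (GRCm39, chr9:7272514-7699587), and 5 of them had counts mainly in APB5 replicate 3. This was not particular to the block, and the share of all genes of the table with such counts is not given here. Outside it, Timp1 had 4499 of its 4968 counts in that library and Adamts19 1352 of its 1794. Mmp3, stromelysin-1, had 412 counts in that library, 3 in APB5 replicate 2 and 0 in the other 10. Mmp12, the macrophage elastase, had 538 counts there and 1 to 17 in the others, so that 85.5% of its counts came from this library. Mmp8, the neutrophil collagenase, had 20 counts there and 0 to 4 elsewhere, and all 10 counts of Mmp27 and all 9 counts of Mmp10, stromelysin-2, came from it. Mmp13, the interstitial collagenase of rodents and the neighbour of Mmp12, did not share this pattern, with 13 counts there and 1 to 18 elsewhere.

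Several genes of this block are textbook targets of AP-1, the factor formed by Fos and Jun proteins. The RefSeq promoters (250 bases before to 50 bases after each start, GRCm38.p6) were therefore searched for its 7-base element TGACTCA on either strand. It reads TGAGTCA on the other strand. Promoters of 32 of the 46 genes were searched, and Adamts19 was not among them. The element was present in 7 of the 10 genes of the block and in 0 of the 22 searched genes outside it. Of all 32851 promoters in the table, 5.20% held it. Whether the genes that are not covered hold it is not reported here. The 100 bases before the start are shown for 6 of the genes because they let the spacing be compared, with the element in capitals and each window placed on GRCm39 by its only exact match on chromosome 9, all on the plus strand. The windows are Mmp13 at chr9:7272414-7272513, Mmp12 (the second of 2 RefSeq starts) at chr9:7347274-7347373, Mmp3 at chr9:7445722-7445821, Mmp10 at chr9:7502243-7502342, Mmp8 at chr9:7558330-7558429 and Mmp27 at chr9:7571297-7571396.
Mmp13: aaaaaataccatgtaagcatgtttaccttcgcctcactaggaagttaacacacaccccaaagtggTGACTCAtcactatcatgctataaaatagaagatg
Mmp12: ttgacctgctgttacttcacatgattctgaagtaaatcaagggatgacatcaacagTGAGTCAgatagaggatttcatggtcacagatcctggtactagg
Mmp3: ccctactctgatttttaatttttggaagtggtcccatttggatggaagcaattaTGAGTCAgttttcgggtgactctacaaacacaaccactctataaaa
Mmp10: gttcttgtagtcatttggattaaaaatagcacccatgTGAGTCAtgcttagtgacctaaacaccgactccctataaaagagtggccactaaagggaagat
Mmp8: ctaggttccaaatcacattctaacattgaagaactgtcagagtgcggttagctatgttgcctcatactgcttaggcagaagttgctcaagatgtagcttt
Mmp27: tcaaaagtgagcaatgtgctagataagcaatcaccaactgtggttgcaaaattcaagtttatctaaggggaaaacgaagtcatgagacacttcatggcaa

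The element began 35 bases before the start of Mmp13, 44 before the second start of Mmp12, 46 before that of Mmp3 and 63 before that of Mmp10, and these letters were not found in the windows of Mmp8 and Mmp27. The promoter of the first RefSeq start of Mmp12 did not hold them either. The element was also present upstream of Mmp1a, Mmp1b and Mmp7, all 3 at 0 counts in these retinas. Presence of the element and counts in APB5 replicate 3 thus did not coincide across the block, and a match of letters is not evidence of binding.

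**Figure D2:**
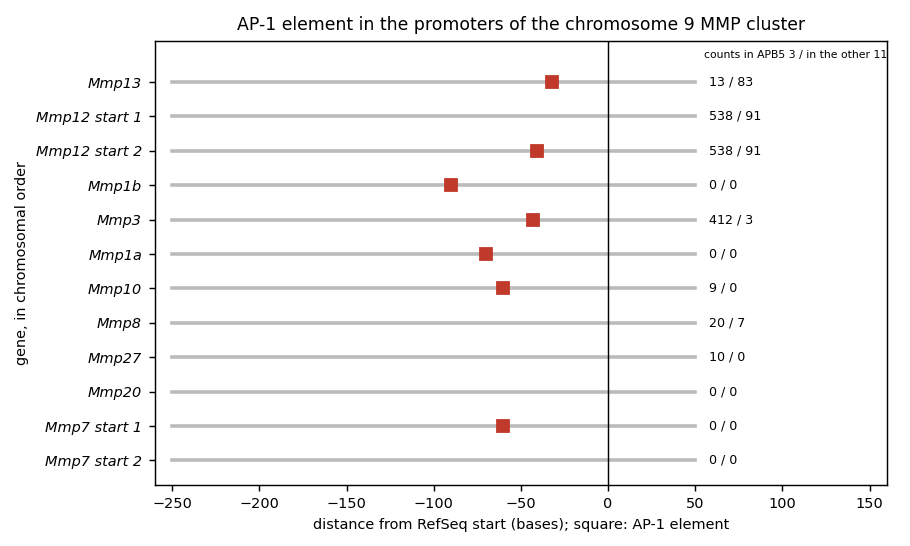
Each line is 1 RefSeq promoter of the chromosome 9 block, drawn from 250 bases before to 50 bases after the start, with a square at the AP-1 element and the gene's counts in APB5 replicate 3 and in the other 11 libraries at the right. Mmp3, Mmp10 and Mmp12 (at its second start only) carry both a square and counts mainly in APB5 replicate 3. Mmp8 and Mmp27 carry such counts with no square, and Mmp1a, Mmp1b and Mmp7 carry a square with no count.

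The first comparison, APB5 against IgG, asks what PDGFRβ blockade alone left in the retina at 4 weeks of age. In edgeR (quasi-likelihood test, p adjusted by Benjamini and Hochberg) 0 of the 33 tested genes of the family passed an adjusted p of 0.05 with a log2 fold change of at least 1, where 0% of the 20350 tested genes did, and 0 passed on adjusted p alone (background 0%). At an unadjusted p of up to 0.05, 11 were higher (background 5.22%) and 0 lower (background 2.01%). On CPM scaled over the compared libraries, the groups did not overlap for 7 of the 33 genes (21.2%), all higher in APB5, against 7.9% of all tested genes higher and 7.65% lower. The 7 were Timp1, Timp2, Timp3, Mmp14, Adamts6, Adamts7 and Adamts12. Left without APB5 replicate 3 on the same scale, these 7 genes had to stay without overlap, since leaving out a library cannot bring separate groups together. No gene was added to the 7 on the higher side (background 11.7%). On the lower side the groups of 2 genes, Adamts5 and Mmp28, then did not overlap (background 12.2%). Xist is high in all IgG libraries and low in APB5 replicates 1 and 2, so without APB5 replicate 3 sex and antibody cannot be told apart. The median log2 fold change of the 33 genes was 0.58 with 28 of 33 positive, beside −0.00 for all genes tested, and it was 0.23 with 23 of 33 positive without that library.

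Of the inhibitors, Timp1, Timp2 and Timp3 were among the 7. Timp1, the inducible inhibitor that glia and fibroblasts make after injury, stood at 1.63, 1.17 and 67.2 CPM in APB5 replicates 1, 2 and 3, against 0.82, 0.84 and 0.45 CPM in IgG. Every APB5 library was above every IgG library, and the third was 101 times the median of the other 11. The fitted difference on the log2 scale was 5.02 (SE 1.60, adjusted p = 0.664) and 0.96 without APB5 replicate 3 (adjusted p = 0.839).

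Timp3, the matrix-bound inhibitor, stood at 165, 163 and 519 CPM in APB5 and at 97.7, 132 and 91.9 CPM in IgG. Timp2, the partner of MT1-MMP, stood at 126, 126 and 296 CPM in APB5 and at 86.7, 101 and 102 CPM in IgG. In both genes the first 2 APB5 libraries lay close together and above all IgG libraries, with the third far above them. The log2 fold changes were 1.42 (SE 0.47) for Timp3 and 0.94 (SE 0.35) for Timp2, each with an adjusted p of 0.664, and 0.62 and 0.39 without APB5 replicate 3. Timp4 was barely expressed, at 0.58, 0.55 and 0.78 CPM in APB5 and 0.35, 0.18 and 0.71 CPM in IgG, and its groups overlapped.

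Timp1, Timp3 and Timp4 each lie within a synapsin gene, Syn1, Syn3 and Syn2, on the opposite strand, and 1734 of the 8146 annotated exon bases of Timp3 and 1142 of the 7743 of Timp4 overlap exons of the host, whereas Timp1 shares 0. Other members overlap annotated genes as well. Timp2 shares 332 of 4463 exon bases with Cep295nl on the same strand. On the opposite strand, Mmp2 shares 860 of 3533 with Gm45472 and Mmp19 shares 1084 of 3541 with Tmem198b. Whether counting used the strand is not given in the sources used here, and the share of such overlaps in the counts was not tested. The hosts, which encode proteins of synaptic vesicles, stayed within 112 to 190 CPM (Syn1), 35.6 to 60.0 CPM (Syn2) and 17.2 to 37.5 CPM (Syn3) over the 12 libraries, and APB5 replicate 3 was 1.2, 1.33 and 1.1 times the median of the others for these 3 genes.

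Mmp14 stood at 37.4, 36.5 and 136 CPM in APB5 and at 23.1, 26.0 and 33.3 CPM in IgG. All 3 APB5 libraries were above all 3 IgG libraries, the closest pair being 36.5 and 33.3 CPM. Mmp14 differed by 1.38 on the log2 scale (SE 0.52, adjusted p = 0.664) and by 0.43 without APB5 replicate 3 (adjusted p = 0.865). Mmp2, the gelatinase that MT1-MMP activates, read 5.35, 5.53 and 39.9 CPM in APB5 and 3.65, 5.37 and 5.04 CPM in IgG. Here the first 2 APB5 libraries were at the top of the IgG range and only the third was far above it. Mmp9, the other gelatinase, had groups that overlapped, at 27.9, 21.2 and 29.7 CPM in APB5 and 19.5, 23.1 and 21.9 CPM in IgG.

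Mmp14, Timp1, Timp2 and Timp3 were also above all 9 libraries of the other 3 groups in each APB5 library, which held for 4 of the 36 genes (11.1%), against 2.58% of the 21228 genes tested over 12 libraries, and 0 of the 36 were below all 9 (background 1.04%). The lowest APB5 value and the highest value of the other 9 were 36.5 and 33.3 CPM for Mmp14, 1.17 and 0.94 CPM for Timp1, 126 and 122 CPM for Timp2, and 163 and 132 CPM for Timp3. Over the same libraries, reactive Müller glia markers summed to 277, 322 and 2666 CPM in APB5 and to 77.5 to 109.9 CPM in the other 9, and fibroblast markers to 42.2, 57 and 647 CPM against 16.0 to 33.2. Pericyte and smooth muscle markers summed to 128, 127 and 389 CPM in APB5 and to 70.8 to 114 CPM in the other 9. Other lists overlapped. Microglia and macrophage markers summed to 60.0, 57.7 and 268 CPM in APB5 and up to 72.0 CPM in the other 9. Endothelial markers summed to 60.2, 50.7 and 71.7 CPM against up to 58.4 CPM. Pigment epithelium markers summed to 47.1, 47.7 and 273 CPM against up to 107 CPM. The part of these lists in the 4 genes was not tested.

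**Figure D3:**
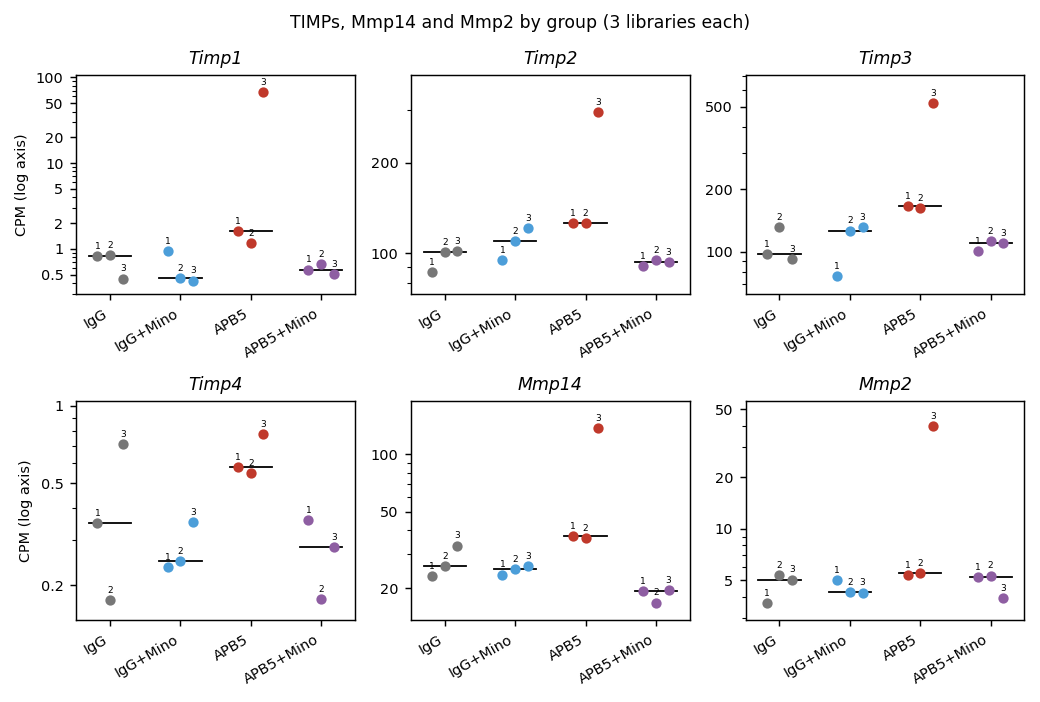
Points are CPM of single libraries on a log axis, numbered by replicate, and lines are group medians. In the panels of Timp1, Timp2, Timp3 and Mmp14 all 3 APB5 points lie above every other point, whereas in the Mmp2 panel APB5 replicates 1 and 2 lie among the other groups at 5.35 and 5.53 CPM.

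The remaining MMPs followed no common pattern in APB5 once replicate 3 was set aside. Mmp12 read 0.31, 0.18 and 8.04 CPM in APB5 and 0.26, 0.21 and 0.03 CPM in IgG, and Mmp19, a broad-range enzyme of vessels and macrophages, read 0.83, 0.77 and 7.77 CPM against 0.42, 0.77 and 0.24 CPM. In both only the third APB5 library was set apart. The membrane-anchored Mmp15, Mmp17 and Mmp24 had log2 fold changes of 0.15, 0.06 and 0.45, and Mmp16 of 0.18, all with adjusted p of at least 0.664. Mmp11, Mmp23 and Mmp28 had log2 fold changes of 0.40, 0.45 and −0.18, which became −0.46, −0.03 and −0.80 without APB5 replicate 3.

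Among the ADAMTS proteases, Adamts12, which cuts cartilage matrix proteins, read 0.76, 0.82 and 2.11 CPM in APB5 and 0.26, 0.53 and 0.45 CPM in IgG, a log2 difference of 1.52 (SE 0.49, adjusted p = 0.664) that was 0.89 without APB5 replicate 3. All APB5 libraries exceeded all IgG libraries, as they did for Adamts6 (3.20, 2.46 and 2.84 against 1.87, 1.89 and 2.35 CPM) and for Adamts7 (1.28, 1.02 and 2.93 against 0.595, 0.928 and 0.984 CPM). Adamts6, whose log2 fold change was 0.48 with and 0.47 without APB5 replicate 3, moved least of the 7 when that library was left out.

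The lectican-cutting group was uneven. Adamts4 read 3.85, 4.58 and 19.5 CPM in APB5 and 3.25, 4.13 and 2.85 CPM in IgG, and Adamts1 read 82.0, 49.6 and 169 CPM against 52.7, 58 and 53.1 CPM. Adamts5, the chief aggrecanase of cartilage, overlapped at 20.4, 21.2 and 25.0 CPM against 26.0, 23.0 and 24.1 CPM, and Adamts9 overlapped at 2.91, 2.81 and 4.26 against 2.5, 5.09 and 1.61 CPM. None of the 4 had an adjusted p under 0.664, and their log2 fold changes were 1.46, 0.90, −0.12 and 0.13.

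The procollagen N-proteinases diverged from each other in APB5 replicate 3. Adamts2 was at 17.3 CPM there and at 0.93 to 3.06 CPM in the other 11 libraries, while Adamts3 was at 46.0 CPM there and at 64.0 to 112 CPM elsewhere. Adamts14, the third of them, was at 0.64 CPM there and at 0.04 to 0.23 CPM elsewhere. Adamts19 was at 20.2 CPM in that library and at 0.24 to 1.36 CPM in the rest, and Adamts16 was at 0.96 CPM, below the 1.18 to 2.31 CPM of the rest. One library therefore held both the highest values of several members and the lowest value of 2.

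**Figure D4:**
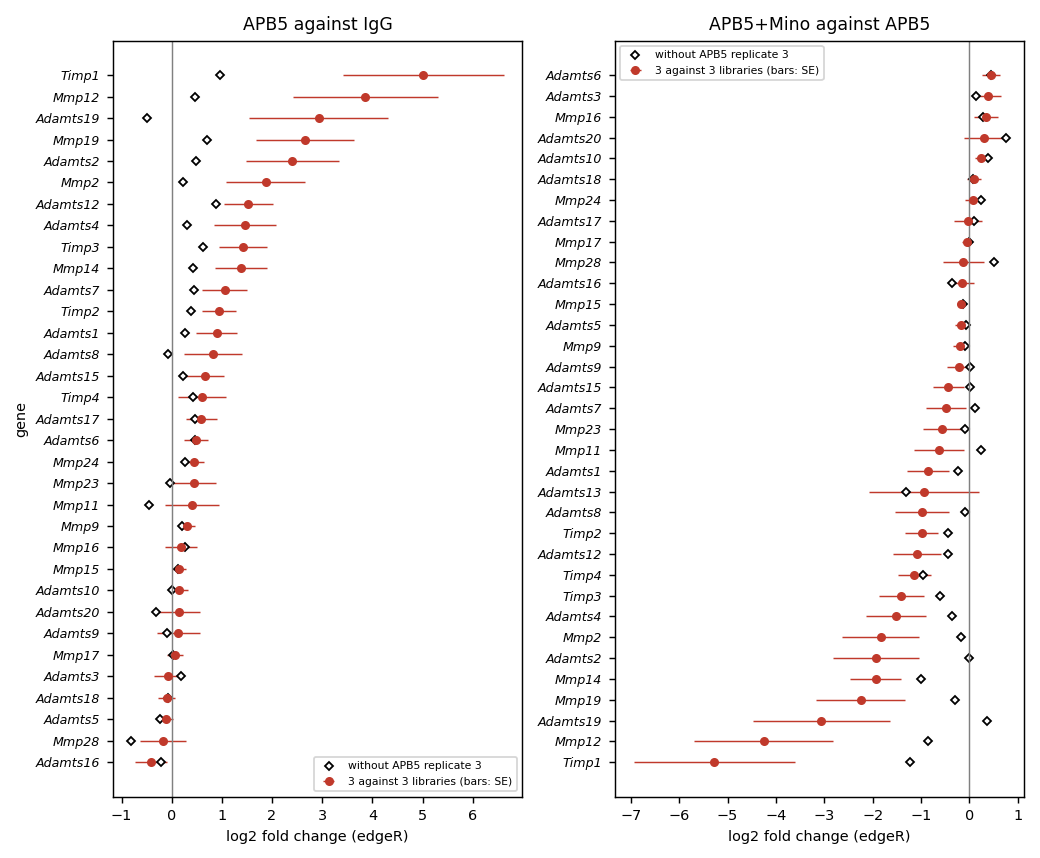
Filled points are log2 fold changes of each tested gene with all 6 libraries of a comparison, with bars of 1 standard error, and open diamonds are the values without APB5 replicate 3. Most of the large changes move toward 0 without that library, as for Timp1, which goes from 5.02 to 0.96 in APB5 against IgG.

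APB5+Mino against APB5 asks what minocycline changed in retinas after the blockade. By the same edgeR test 0 of 34 tested genes of the family passed the adjusted p and fold thresholds (background 1.66% of 20281 genes) and 0 passed on adjusted p alone (background 4.82%), while 8 were lower (background 19.2%) and 0 higher (background 16.7%) at an unadjusted p of up to 0.05. With the replicate number as a block, which treats same-numbered libraries as matched, 0 genes of the whole table were called. This held on adjusted p alone as well, so that the background becomes 0. The labels do not say what the number marks, and in both groups Xist was high in replicate 3 only. The groups did not overlap for 10 genes on the lower side (29.4%, background 22.9%) and for 1, Adamts6, on the higher side (background 23.4%). The 10 were Timp1 to Timp4, Mmp2, Mmp12, Mmp14, Mmp15, Mmp19 and Adamts4. The median log2 fold change of the 34 genes was −0.53 with 27 negative, beside −0.02 for all genes tested, and −0.08 with 20 negative without APB5 replicate 3.

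The 4 genes that stood above all other libraries in APB5 were among them. This largely follows from how they were picked, since those other libraries include the ones of APB5+Mino. Mmp14 read 19.3, 16.8 and 19.5 CPM in APB5+Mino, against 37.4, 36.5 and 136 CPM in APB5, and the closest pair was 19.5 and 36.5 CPM. The log2 difference of Mmp14 was −1.94 (SE 0.53, adjusted p = 0.0627). Timp1 read 0.57, 0.67 and 0.51 CPM in APB5+Mino (log2 fold change −5.28, SE 1.67, adjusted p = 0.0788). Timp3 read 101, 112 and 110.0 CPM (log2 fold change −1.41, SE 0.46, adjusted p = 0.0852) and Timp2 90.6, 95.2 and 93.8 CPM (log2 fold change −0.99, SE 0.34, adjusted p = 0.0942). Timp4 read 0.36, 0.18 and 0.28 CPM (log2 fold change −1.14, SE 0.33, adjusted p = 0.0698). With the replicate block the edgeR log2 differences were −1.63 for Mmp14 (adjusted p = 0.0756), −2.95 for Timp1 (0.205), −1.16 for Timp3 (0.105), −0.86 for Timp2 (0.110) and −1.15 for Timp4 (0.0899).

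Without APB5 replicate 3 the spread of the APB5 group was smaller and several of these genes passed. Timp1 then passed both thresholds, with a log2 fold change of −1.22 and an adjusted p of 0.0139. Mmp14 (log2 fold change −1.0, adjusted p = 0.000823), Timp3 (−0.61, adjusted p = 0.00236) and Timp2 (−0.44, adjusted p = 0.00527) passed on adjusted p alone, as did Adamts10 in the other direction (0.38, adjusted p = 0.0117). These 4 lower and 1 higher of 34 genes compare with 13.4% and 13.2% of all 20621 genes tested without that library, so that passing genes were not more frequent in the family than in the table. Groups did not overlap for 11 genes on the lower side (background 28.4%) and 4 on the higher side (background 27.9%). Genes already without overlap when that library was kept are among them by construction.

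With all 6 libraries, the adjusted p of Mmp14 was 0.00121 by DESeq2, 0.0133 in an edgeR fit of all 12 libraries and 0.0756 with the replicate block, which makes its call dependent on how the spread was estimated. Microglia and macrophage markers summed to 22.6 to 25.6 CPM in APB5+Mino and 57.7 to 268 CPM in APB5, reactive Müller glia markers to 77.5 to 108 against 277 to 2666 CPM, and pericyte and smooth muscle markers to 70.8 to 77.1 against 127 to 389 CPM. Fibroblast markers summed to 18.3 to 20.4 against 42.2 to 647 CPM and endothelial markers to 30.1 to 32.5 against 50.7 to 71.7 CPM. Their part in the lower levels was not tested.

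Adamts6, a protease needed for heart development, was the only gene of the family with all APB5+Mino libraries above all APB5 libraries, at 3.63, 3.80 and 4.23 CPM against 3.20, 2.46 and 2.84 CPM (log2 fold change 0.44, SE 0.19, adjusted p = 0.144). The other always-reported proteases had adjusted p of at least 0.129. Mmp2 read 5.19, 5.32 and 3.91 CPM in APB5+Mino (log2 fold change −1.84, and −0.18 without APB5 replicate 3), Adamts4 3.31, 3.27 and 3.22 CPM (−1.53 and −0.37) and Adamts1 51.6, 69.1 and 48.1 CPM (−0.85 and −0.23). Mmp9 (−0.20), Adamts5 (−0.17) and Adamts9 (−0.21) had log2 fold changes close to 0 with groups that overlapped. Mmp12 read 0.11, 0.16 and 0.09 CPM in APB5+Mino, below each APB5 library, with a log2 fold change of −4.26 that became −0.86 without APB5 replicate 3. With the block the log2 differences of Mmp12, Mmp2 and Adamts4 were −2.68, −1.08 and −1.09, and their adjusted p were 0.189, 0.354 and 0.205.

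IgG+Mino against IgG asks what minocycline did to retinas that had normal pericyte recruitment. In edgeR 0 of 32 tested genes passed both thresholds or adjusted p alone (each background 0.0298% of 20143 genes), with no adjusted p under 0.585. At an unadjusted p of up to 0.05, 3 were higher (background 4.98%) and 1 lower (background 3.39%). Groups did not overlap for 4 genes on the higher side (background 7.11%), which were Mmp9, Mmp24, Adamts12 and Adamts17, and for 1 on the lower side (background 7.26%), Adamts19. Mmp9 read 25.5, 25.2 and 30.3 CPM in IgG+Mino against 19.5, 23.1 and 21.9 CPM in IgG (log2 fold change 0.33, SE 0.14), and Mmp24, a membrane-type enzyme of neurons, 27.8, 31.8 and 30.6 against 20.4, 22.9 and 27 CPM (0.36, SE 0.14). Adamts17 had a log2 fold change of 0.77 (SE 0.27), Adamts12 of 0.72 (SE 0.33) and Adamts19 of −1.01 (SE 0.37). The median over the 32 genes was 0.02, with 16 positive. Xist was high in all 3 IgG libraries and low in all 3 IgG+Mino libraries, so sex and minocycline cannot be told apart in this comparison.

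APB5+Mino against IgG+Mino asks what remained of the blockade in minocycline-treated retinas. In edgeR 0 of 32 tested genes passed both thresholds (background 1.23% of 20049 genes), and 2 passed on adjusted p alone on the higher side (background 4.8%) and 1 on the lower side (background 3.28%), shares close to those of the whole table. Adamts6 read 3.63, 3.80 and 4.23 CPM in APB5+Mino and 2.15, 1.86 and 1.86 CPM in IgG+Mino, a log2 difference of 0.98 (SE 0.16, adjusted p = 0.0175). Adamts10 read 40.9, 41.6 and 42.9 CPM against 32.2, 28.2 and 25.6 CPM (log2 fold change 0.54, SE 0.11, adjusted p = 0.0236). Neither gene had groups that overlapped, and Adamts6 was just short of the fold threshold.

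Mmp14 was the gene that passed on the lower side, at 19.3, 16.8 and 19.5 CPM in APB5+Mino against 23.5, 25.0 and 26.0 CPM in IgG+Mino (log2 fold change −0.42, SE 0.10, adjusted p = 0.0425). The direction was opposite to that in APB5 against IgG. In these libraries microglia and macrophage markers summed to 22.6 to 25.6 CPM in APB5+Mino and 36.8 to 43.4 CPM in IgG+Mino, endothelial markers to 30.1 to 32.5 against 36.1 to 43.9 CPM, and pericyte and smooth muscle markers to 70.8 to 77.1 against 80.3 to 92.8 CPM. Their part in the level of Mmp14 was not tested. The 3 genes no longer passed without IgG+Mino replicate 3, without APB5+Mino replicate 2 or 3, in the fit of all 12 libraries and with Xist as a covariate, where the smallest adjusted p of the family was 0.0776, 0.0927, 0.108, 0.0727 and 0.111. Adamts10 (0.0582) and Mmp14 (0.0794) also did not pass without APB5+Mino replicate 1, nor did Mmp14 (0.0638) without IgG+Mino replicate 2. Without IgG+Mino replicate 1, 2 genes were higher and 5 lower on adjusted p alone, the latter being Mmp14, Mmp15, Adamts18, Timp2 and Timp3. The share of all genes on adjusted p alone is not given for this setting, so these counts are not a result about the family. With the fold threshold 1 of 32 was higher (background 1.35%) and 0 lower (background 0.884%).

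In the same comparison groups did not overlap for 7 genes on the higher side (21.9%, background 17.7%) and 6 on the lower side (18.8%, background 17.3%). Beside the 3 above, Adamts16 read 1.29, 1.23 and 1.18 CPM in APB5+Mino against 1.86, 1.93 and 1.76 CPM in IgG+Mino (log2 fold change −0.57, SE 0.19, adjusted p = 0.0843), and Mmp15, MT2-MMP, 20.05, 20.55 and 18.7 against 22.4, 24.2 and 25.7 CPM (−0.28, SE 0.10, adjusted p = 0.0944). Timp2 differed by −0.22 on the log2 scale (SE 0.10, adjusted p = 0.162), and its groups did not overlap when scaled over these 6 libraries but did when scaled over all 12 (95.2 CPM in APB5+Mino replicate 2 and 95.0 CPM in IgG+Mino replicate 1). Also lower without overlap were Mmp17 (−0.21, adjusted p = 0.177) and Mmp9 (−0.22, adjusted p = 0.186). Adamts19 (0.87), Mmp19 (0.59), Adamts7 (0.42), Mmp24 (0.16) and Adamts15 (0.14) were higher without overlap and had adjusted p of at least 0.104. The median of the 32 genes was −0.02 with 13 positive.

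**Figure D5:**
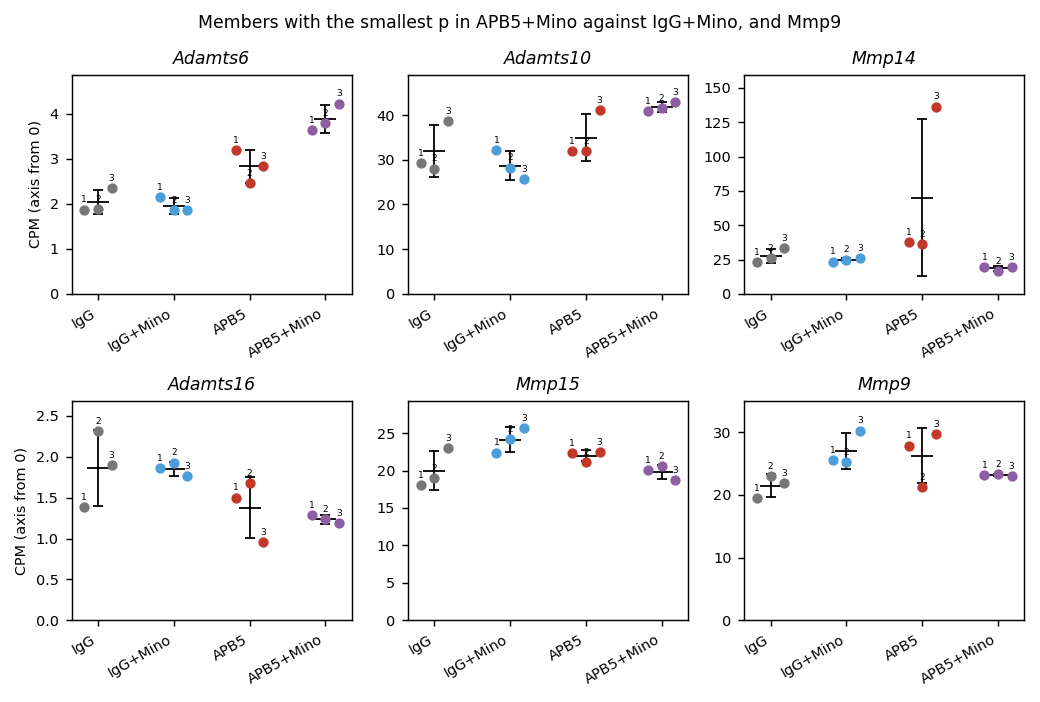
Points are CPM of single libraries on axes that start at 0, numbered by replicate, with bars for the group mean ± SD. Adamts6 and Adamts10 in APB5+Mino (3.63 to 4.23 and 40.9 to 42.9 CPM) lie above all IgG+Mino points, and Mmp14, Adamts16 and Mmp15 lie below them, while the Mmp14 panel also shows APB5 replicate 3 at 136 CPM.

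The interaction of antibody and minocycline, that is, whether the difference between APB5 and IgG was itself different under minocycline, was fitted over all 12 libraries. In edgeR 0 of 36 genes passed both thresholds or adjusted p alone (each background 0.0141% of 21228 genes), and 8 were negative (background 9.08%) and 0 positive (background 8.06%) at an unadjusted p of up to 0.05. Mmp14 had the smallest p, with an interaction of −1.78 on the log2 scale (SE 0.57, adjusted p = 0.186), followed by Timp2 at −1.15 (SE 0.38, adjusted p = 0.195). Without APB5 replicate 3 these were −0.87 (adjusted p = 0.0750) and −0.63 (adjusted p = 0.0996). The median over the 36 genes was −0.62 with 29 negative, and −0.21 with 25 negative without that library. The interaction includes the difference of IgG+Mino from IgG, in which sex and minocycline cannot be told apart.

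The 10 genes below the count level were all MMPs. Mmp1a, Mmp1b, Mmp7 and Mmp20 had 0 counts in all 12 libraries, which allows up to 3 counts, or 0.0448 to 0.0587 CPM, in a library. Mmp21 had 19 counts in all and at most 5 in a library, and Mmp25, the leukocyte membrane-type enzyme, 37 in all with 13 in APB5 replicate 3. Mmp3 was at 6.16 CPM in APB5 replicate 3, at least 105-fold above what 3 counts are worth in the others, and at 0 in every IgG, IgG+Mino and APB5+Mino library. It was left out of the tests because only 1 library held more than 10 counts.

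Other genes of matrix proteolysis were read from lists in the same fits. Of 23 activators, cofactors and other inhibitors, 22 were tested and 0 passed both thresholds in any of the comparisons. On adjusted p alone 1 was higher in APB5+Mino than in APB5 (background 4.82% in either direction). In APB5+Mino against IgG+Mino 2 were lower (background 3.28%) and 0 higher (background 4.8%). On adjusted p alone, Reck, a membrane-anchored inhibitor of MMPs, was higher in APB5+Mino than in APB5 (21.2, 22.1 and 24.9 against 12.9, 14.1 and 13.8 CPM, log2 fold change 0.73, adjusted p = 0.0447, and 0.0641 with the block). Pcolce, the enhancer of procollagen C-proteinase, and Serpine2, protease nexin-1, were lower in APB5+Mino than in IgG+Mino (log2 fold changes −0.74 and −0.44, adjusted p = 0.0409 and 0.0474). The median of this list was 0.44 in APB5 against IgG and −0.58 in APB5+Mino against APB5, and 0.25 and −0.29 without APB5 replicate 3.

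A2m, the broad protease trap α2-macroglobulin, read 25.5, 29.2 and 406 CPM in APB5 and 5.74 to 10.7 CPM in the other 9 libraries. Every APB5 library was above every other, and the gene did not pass the test in APB5 against IgG (adjusted p = 0.664). It was chosen after its values were seen, and the others of these lists are named because they passed on adjusted p. Of the 11 lectican and basement membrane genes, 11 of 11 had a positive log2 fold change in APB5 against IgG, beside 49.6% of all tested genes, and 0 passed. Their median was 0.70, and 0.34 without APB5 replicate 3. Vcan, which encodes versican, was lower in APB5+Mino than in APB5 on adjusted p alone (5.42, 6.62 and 6.75 against 10.4, 11.8 and 11.9 CPM, log2 fold change −0.87, adjusted p = 0.0461, and 0.0641 with the block), and Lama1, a laminin chain of basement membranes, was higher in APB5+Mino than in IgG+Mino (log2 fold change 0.72, adjusted p = 0.0158). Of the 6 ADAMTS-like genes, which lack the protease domain, Adamtsl5 was lower in APB5+Mino than in IgG+Mino (log2 fold change −0.49, adjusted p = 0.0429). Vcan, Lama1 and Adamtsl5 were each the only gene of their list to pass in that comparison, beside the same background shares as for the first list.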

How the data were processed

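RNA of whole retinas was sequenced in 12 libraries. The authors prepared strand-specific poly-A libraries, demultiplexed with bcl2fastq 2.20 and used DRAGEN for alignment to mm39 (NCBI sequence and annotation). Its version and its use of strand in counting are not given in the sources used here. Raw counts per gene were deposited by the authors in 1 table, of which 3 repeated columns were not used. The authors' result tables, which hold fold changes and p-values of their own comparisons, were not used.

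Counts were analysed in R 4.3.3 with edgeR 4.0.16 (filterByExpr, TMM, quasi-likelihood test, prior count 2, Benjamini-Hochberg adjustment over all tested genes), with limma 3.58.1 loaded by it, and only the 2 groups compared in a fit. Standard errors are the log2 fold change divided by the square root of F. Calls needed an adjusted p of up to 0.05 and a log2 fold change of 1 or more in either direction. Tests were two-sided and were tested on simulated data. Coordinates, overlaps and transcript lengths come from GENCODE vM39 on GRCm39, which is not the authors' annotation. Total counts of 52740545 to 59411044 put 3 counts at up to 0.0587 CPM, and this covers counting error only. All pairs of replicate libraries differed by more than sampling noise (chi-square per gene of 13.6 to 377).

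Named genes are Timp1 to Timp4, Mmp2, Mmp9, Mmp14, Adamts1, Adamts4, Adamts5 and Adamts9, genes with an adjusted p of up to 0.05, and up to 5 per direction and comparison with the smallest p among those whose groups did not overlap. Others are given by group. The members, lists and this rule were chosen with earlier results of these data known. Alternatives were RLE scaling, DESeq2 1.42.0, no count filter, all 12 libraries in 1 fit, the replicate block, log2 CPM of Xist (plus 1) as a covariate, leaving out each library, and calls with no fold threshold. Genes that DESeq2 left without an adjusted p stayed so. Same-numbered libraries of APB5+Mino and APB5 deviated together (correlations of 0.134 to 0.182 over 20281 genes, against −0.157 to 0.019 for different numbers), so the numbers were taken to pair them. In each other comparison at least 1 same-number correlation was under 0.1. Libraries of different number reached 0.206 in APB5 against IgG and 0.200 in IgG+Mino against IgG. The pairing of APB5+Mino and APB5 is therefore uncertain.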

Additional observations from a re-analysis of the deposited data

Results flagged for a closer look

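Mmp14 and Timp2 had fold changes of opposite sign in the 2 contrasts of APB5 with IgG, with groups that did not overlap in either when scaled over the compared libraries. For Timp2 this depends on the scaling, since over all 12 libraries APB5+Mino replicate 2 (95.2 CPM) was above IgG+Mino replicate 1 (95.0 CPM). The difference itself was tested in edgeR as the interaction and did not pass. It was −1.783 on the log2 scale for Mmp14 (adjusted p = 0.186) and −1.149 for Timp2 (adjusted p = 0.195). Without APB5 replicate 3 both kept their sign, at −0.87 (adjusted p = 0.0750) and −0.63 (adjusted p = 0.0996). Xist was high in the IgG libraries and low in the IgG+Mino libraries, so sex and minocycline cannot be told apart in that part of the interaction.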

How the results depend on the processing

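In APB5 against IgG 0 genes of the family were called in every setting but log2 CPM of Xist as a covariate, which called 12 of 36 as higher, beside 4.38% of all genes (Mmp2, Mmp12, Mmp14, Mmp19, Adamts2, Adamts4, Adamts7, Adamts12, Adamts19, Timp1, Timp2 and Timp3). In that fit the covariate is estimated within the APB5 and APB5+Mino groups, where APB5 replicate 3 is the only APB5 library with high Xist. In APB5+Mino against APB5 DESeq2 called 3 as lower (Mmp14, Adamts4 and Timp3, with no adjusted p for Timp1; 4.99% of all genes), the fit of all 12 libraries 5 (5.38%), the Xist covariate 4 (5.32%), and the block without APB5 replicate 3, an alternative chosen after seeing the data that leaves 1 residual degree of freedom, 2 (3.26%). Leaving out single libraries gave 0 to 4 lower, with 4 without APB5 replicate 2 (Mmp12, Mmp14, Timp1 and Timp3; 5.04% of all genes) and 1 without APB5 replicate 3 (Timp1; 2.53%). In APB5+Mino against IgG+Mino 2 were higher and 1 lower with no fold threshold. With the fold threshold and a library left out, 0 to 1 were higher. The call was Adamts6 without IgG+Mino replicate 1 or APB5+Mino replicate 1. The interaction had 1 lower call by DESeq2 (Mmp14; 1.08% of all genes) and 5 with the Xist covariate (2.69%). The replicate block left the family at 0 calls in each comparison, and Adamts6, Adamts10 and Mmp14 had adjusted p of 0.0108, 0.0104 and 0.0216 with it in APB5+Mino against IgG+Mino, where the numbers were not taken to pair the libraries. Medians over the family moved to −0.08 without APB5 replicate 3 in APB5+Mino against APB5, and with the Xist covariate to 0.65 in IgG+Mino against IgG. Of 505 alternative values of the 40 named fold changes 5 changed sign, none of them past the threshold. Why they did was not tested.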

Other observations

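Adamts13, which cleaves von Willebrand factor, was uneven within groups. It had 66 counts in APB5 replicate 1, 35 in IgG+Mino replicate 1 and 32 in APB5+Mino replicate 1, but 4 in IgG replicate 1 and 1 to 11 in the remaining 8 libraries. A lncRNA on the opposite strand, Gm36649, shares 132 of its 4925 annotated exon bases. Whether those bases add to the counts was not tested.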
